A study of Homo sapiens with 9 samples.

Results

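The proteasome genes described here are the constitutive subunits of the proteasome with their assembly factors, activators and inhibitor, measured in 143B cells, a human osteosarcoma cell line. They are the protein-coding genes of the deposited table whose symbol is PSMA, PSMB, PSMC, PSMD, PSME, PSMF or PSMG followed by a number, leaving out PSMB8, PSMB9 and PSMB10, the immunoproteasome subunits. The rule found 45 of the 36810 genes listed: 16 of the core, 17 of the regulatory particle, 7 assembly factors, 4 activators and 1 inhibitor. The rule goes by symbol and uses no measured value, but it was set with earlier results of these data known. Polyadenylated RNA was sequenced from 9 libraries, 3 in each of 3 groups. Control cells were collected at 0 h and received no XD23, and the other groups were exposed to 0.5 µM XD23, a compound whose nature the labels do not state, for 24 h or for 48 h. All 9 libraries came from this line, grown in serum-supplemented medium. No vehicle control or untreated culture kept for the same time was named, so exposure to the compound and time in culture cannot be told apart. Whether libraries of the same group stem from different cultures is not stated either, so p-values measure only the spread between these libraries, which may be technical.

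The proteasome degrades proteins that have been tagged with ubiquitin. Its core is a barrel of stacked rings: the outer rings are built of alpha subunits, which gate the entry, and the inner rings of beta subunits, of which PSMB5, PSMB6 and PSMB7 carry the constitutive proteolytic sites. The regulatory particle caps the barrel. Its base holds a ring of ATPases (PSMC1 to PSMC6) that unfold the substrate, and its lid includes the deubiquitinase PSMD14. Dedicated chaperones build each piece and are not part of the finished particle: PSMG1 to PSMG4 guide the core rings, and PSMD5, PSMD9 and PSMD10 guide the ATPase ring. PSME1 to PSME4 are alternative caps, and PSMF1 is an inhibitor of the core. In mammalian cells the transcription factor NFE2L1 raises the subunit genes together when proteasome activity is blocked.

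The libraries held between 18341542 and 22901830 fragments assigned to genes, as inferred from the steps between low deposited values. Expression is in FPKM, fragments per kilobase of gene scaled to the library's total, so each value is relative. In bulk RNA, fewer cells and less RNA per cell cannot be told apart. Of 9 mesenchymal and osteoblast markers 8 were listed: VIM, at 304 FPKM in the control group, SPARC, at 41.9 FPKM, and RUNX2, at 6.34 FPKM, were expressed, while COL1A1, at 0.495 FPKM, COL1A2, SP7, ALPL and BGLAP lay under the filter on low values. The listed genes summed to 346 to 358 FPKM in control, 350 to 439 FPKM at 24 h and 379 to 407 FPKM at 48 h. At 48 h SPARC fell to 28.2 FPKM (log2 fold change -0.56, adjusted p = 4.94e-05) and RUNX2 to 4.19 FPKM (-0.50, adjusted p = 0.000189), and VIM stood at 357 FPKM (0.23, adjusted p = 0.0935). The summed levels of the immune markers were 0.0874 to 0.208 FPKM in control, 0.0897 to 0.256 FPKM at 24 h and 0.105 to 0.215 FPKM at 48 h, and those of the endothelial markers 0.409 to 0.495, 0.284 to 0.397 and 0.665 to 0.77 FPKM. The epithelial markers, mostly KRT8 and KRT18, summed to 184 to 193 FPKM in control, 187 to 214 FPKM at 24 h and 139 to 153 FPKM at 48 h. No listed marker was at 0 in all libraries, and the part of these markers in the results below was not tested.

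The promoters of 3 members are shown because they belong to the members with the largest fall, the only rise and the largest fall among the ATPases at 48 h. Each run is the 250 bases before the gene's start in RefSeq on GRCh38.p14, read 5′ to 3′ on the gene's own strand. Capitals mark a match, on either strand, to the antioxidant response element TGACNNNGC, the kind of site to which NFE2L1 binds, or to the CCAAT box CCAAT. The windows are chr21:39183452-39183701 for PSMG1, chr2:53970994-53971243 for PSME4 and chr11:47426440-47426689 for PSMC3, all on the minus strand.
PSMG1: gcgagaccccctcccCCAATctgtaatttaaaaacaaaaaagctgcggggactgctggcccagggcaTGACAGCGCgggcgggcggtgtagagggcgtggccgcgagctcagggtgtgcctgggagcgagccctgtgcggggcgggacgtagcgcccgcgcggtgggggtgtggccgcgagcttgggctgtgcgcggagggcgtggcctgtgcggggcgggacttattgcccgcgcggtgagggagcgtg
PSME4: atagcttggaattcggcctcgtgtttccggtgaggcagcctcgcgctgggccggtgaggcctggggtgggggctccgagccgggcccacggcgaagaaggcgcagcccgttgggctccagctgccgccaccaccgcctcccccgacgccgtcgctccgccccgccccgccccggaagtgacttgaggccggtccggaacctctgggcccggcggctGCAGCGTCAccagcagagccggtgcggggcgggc
PSMC3: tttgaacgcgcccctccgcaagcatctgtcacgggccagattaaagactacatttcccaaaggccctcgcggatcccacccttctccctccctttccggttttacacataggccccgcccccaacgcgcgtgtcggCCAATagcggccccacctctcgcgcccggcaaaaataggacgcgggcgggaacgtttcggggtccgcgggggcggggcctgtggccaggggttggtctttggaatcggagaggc
In the PSMG1 window the CCAAT box lay 235 to 231 bases and the antioxidant response element 183 to 175 bases before the start. The PSME4 window held the element on the opposite strand, 34 to 26 bases before the start, and the PSMC3 window held a CCAAT box 114 to 110 bases before it. The RefSeq start of PSME4 lies outside the GENCODE gene, which ends at position 53970840. The whole PSMG1 window lies inside the GENCODE gene, which runs to position 39183851. The PSMG1 matches are thus upstream of the RefSeq start only. A match is a description of letters and not a binding site.

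In control cells the tested members covered a wide range of levels per length. In the alpha ring, PSMA7 was the highest at 205 ± 10.5 FPKM (SD, n = 3), followed by PSMA3 at 55.6 ± 2.26, PSMA5 at 42.3 ± 0.901, PSMA4 at 19.3 ± 0.508 and PSMA1 at 6.48 ± 0.33 FPKM. In the beta ring, PSMB4 was the highest at 149 ± 5.75 FPKM, followed by PSMB7 at 98.6 ± 7.77 and PSMB1 at 88.6 ± 4.12 FPKM, whose libraries overlapped. PSMB3, at 79.1 ± 1.4 FPKM, came next, above PSMB5, PSMB6 and PSMB2. Among the ATPases the control level ran from 9.44 ± 0.268 FPKM for PSMC2 to 49.3 ± 2.17 FPKM for PSMC3. The base scaffold PSMD2 stood at 116 ± 2.98 FPKM, and the lid subunits lay between 9.62 ± 0.262 FPKM for PSMD11 and 34.7 ± 1.42 FPKM for PSMD8. Subunits present in equal numbers in the finished particle thus had unequal mRNA values on this scale. These levels depend on the gene length the authors used: whole fragments were obtained for PSMC2 with 8637 bases and for PSMD1 with 15795 bases, where the GENCODE exons cover 3547 and 5187 bases.

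**Figure D1:**
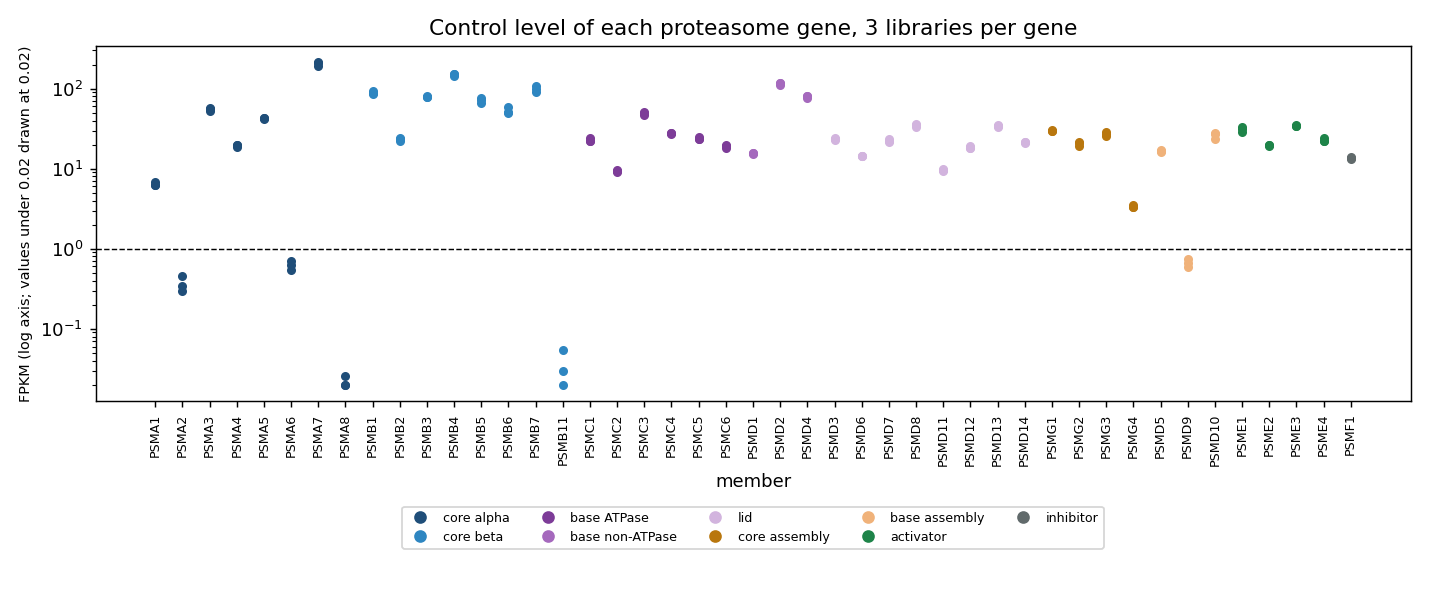
FPKM of each of the 45 members in the 3 control libraries, on a log axis, coloured by structural class. The dashed line marks 1 FPKM, the filter on low values. PSMA2, PSMA6, PSMA8, PSMB11 and PSMD9 lie below it, and PSMA7 is the highest.

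The filter of at least 1 FPKM in at least 3 libraries left out 5 members, and 40 were tested. PSMA8, the testis form of an alpha subunit, had 1 fragment in the first control library and 0 in the other 8, and a count of 0 allows up to 3 fragments in a library. PSMB11, the thymus form of a catalytic subunit, had 0, 2 and 1 fragments in the control libraries, 0, 1 and 2 at 24 h, and 0 in all 3 libraries at 48 h. These are tissue-restricted forms, and both sat at the limit of counting, where only counting error is covered.

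The other members under the filter are general subunits or chaperones. The alpha subunit PSMA2 was listed at 0.45, 0.346 and 0.299 FPKM in control, 0.357, 0.309 and 0.202 FPKM at 24 h, and 0.328, 0.354 and 0.259 FPKM at 48 h. The alpha subunit PSMA6 was listed at 0.632, 0.546 and 0.696 FPKM in control, 0.475, 0.589 and 0.624 FPKM at 24 h, and 0.565, 0.577 and 0.568 FPKM at 48 h. The base chaperone PSMD9 was listed at 0.591, 0.741 and 0.671 FPKM in control, 0.775, 0.716 and 0.791 FPKM at 24 h, and 0.717, 0.767 and 0.618 FPKM at 48 h. The groups overlapped in all 3 genes. Each shares much of its coding sequence, on the same strand, with a read-through gene model: 97.1% of coding bases in PSMA2, 70.4% in PSMA6 and 58.7% in PSMD9. For PSMA1, which was tested, the share was 88.6%. How reads over such shared exons were counted is not given in the sources used here, and the levels of these 4 genes are therefore uncertain. On the opposite strand PSMC1 shared 47.7% of its coding bases with NRDE2, PSMD7 28.4% with AC009120.2, PSMC5 10.5% with FTSJ3, PSMD11 6.5% with AC005899.8 and PSMG4 6% with SLC22A23. Without a stated strand setting, reads of these opposite-strand pairs cannot be told apart. PSMF1 shared 14.2% with the same-strand transcript AL031665.1, a pair that no strand setting could separate.

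The third 24 h library stood apart, and not for these genes alone. It was the highest of the 3 libraries at 24 h for 32 of 40 members and the highest of all 9 for 29. In it the median deviation from the control mean, on log2(FPKM + 1), was 0.20 for the core, 0.19 for the assembly factors and 0.08 for the regulatory particle, against -0.02 over all genes tested. In the other 24 h libraries the core stood at -0.03 and -0.02. The summed FPKM of the 12 tested core genes was 930, 851 and 899 in control, 873, 876 and 1035 at 24 h, and 813, 764 and 826 at 48 h. The 48 h sums all lay below the control sums, and the 24 h sums overlapped them. With the third library the median log2 fold change of all members at 24 h was 0.03, and without it -0.02. From 24 h to 48 h the median was -0.14 with it and -0.09 without it. The summed FPKM over all genes tested was also highest in the third 24 h library, at 308200, against 284100 to 293400 in the others. Outside the members, VIM (389 FPKM) and KRT18 (182 FPKM) had their highest value of the 9 there, and NFE2L1 (22.7 FPKM) and DDI2 (5.46 FPKM) their lowest. What set the third library apart was not tested.

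**Figure D2:**
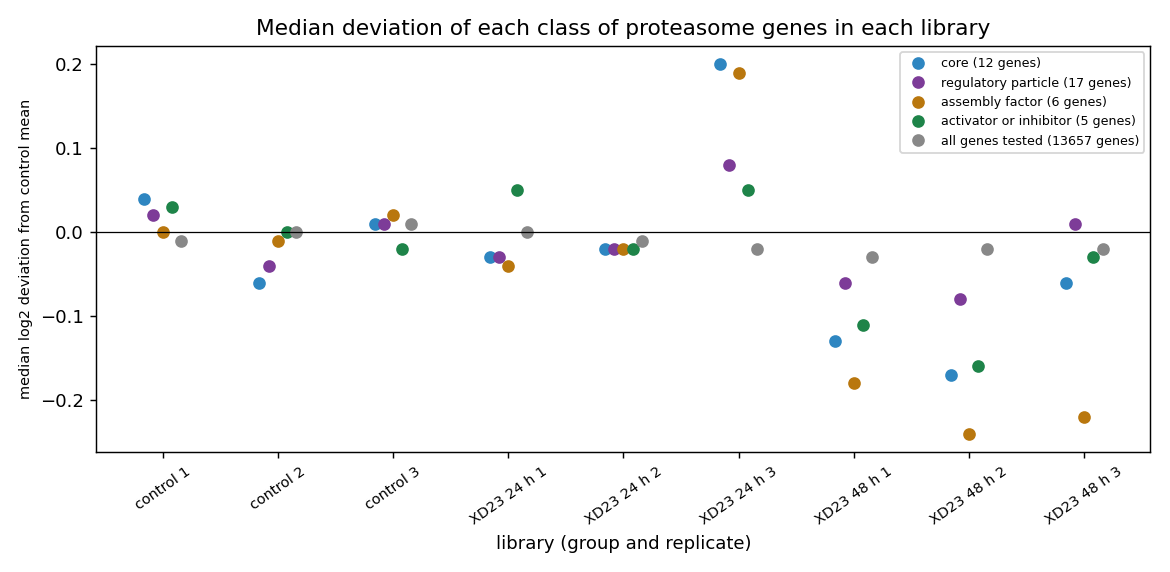
Median log2 deviation from the control mean (on log2(FPKM + 1)) of each class of proteasome genes and of all genes tested, in each of the 9 libraries. The core and assembly factor points stand at 0.20 and 0.19 in the third 24 h library, and the assembly factor points lie between -0.24 and -0.18 in the 48 h libraries.

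After 48 h of XD23 the proteasome genes that changed mostly fell by small amounts, led by the core chaperone PSMG1, while the cap PSME4 rose, and after 24 h no member passed the test. The test was limma on log2(FPKM + 1) over all 13657 genes past the filter, with Benjamini-Hochberg adjustment and a threshold of 0.05. At 24 h, 0 of 40 members passed, where 0.00732% of all genes tested (1 gene) did. At an unadjusted p under 0.05, 3 members and 1015 of all genes passed, and no member passed under any of the 19 alternatives, limma with array weights among them. At 48 h, 9 members had fallen and 1 had risen against control, which is 25% of the 40, where 28.5% of all genes tested were called, 15.2% lower and 13.3% higher. The share called was thus near that of all genes. Of the 40 fold changes 32 were negative, where 7460 of 13657 were over all genes tested. The median log2 fold change was -0.08 (-0.11 to -0.04 over the alternatives), against -0.02 over all genes tested. Members moved together within single libraries, control libraries among them, so these signs are not independent. In the control libraries 31, 9 and 24 of 40 members lay above the control mean, against 9, 4 and 17 at 48 h. Their median deviations from that mean were 0.03, -0.04 and 0.01 in control, and -0.09, -0.11 and -0.03 at 48 h. Between 24 h and 48 h, 14 members fell and 2 rose, 40% of the 40, where 32.3% of all genes were called, 16.3% lower and 16.0% higher. In that comparison 34 of 40 fold changes were negative, with a median of -0.14 against -0.01 over all genes. The comparisons share libraries, and their counts are not independent.

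The count of falls at 48 h depended on single libraries. The third 24 h library enters the comparison with control only through the shared estimate of spread. Without it 16 members were called lower than control. Without the first control library or without the second 48 h library the count was 6. Calls in either direction over all 13657 genes tested moved likewise. They numbered 3891 with all libraries, 5132 without the third 24 h library, 2650 without the first control and 2584 without the second 48 h library. Against 24 h, 7 members were called lower without the second 48 h library and 9 without the first 48 h library. Calls over all genes tested went from 4415 to 2985 without the second and 3443 without the first. The number of rises against 24 h was 1 without the second 24 h library or without the first 48 h library. The rises against control numbered 2 without the second 48 h library.

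**Figure D3:**
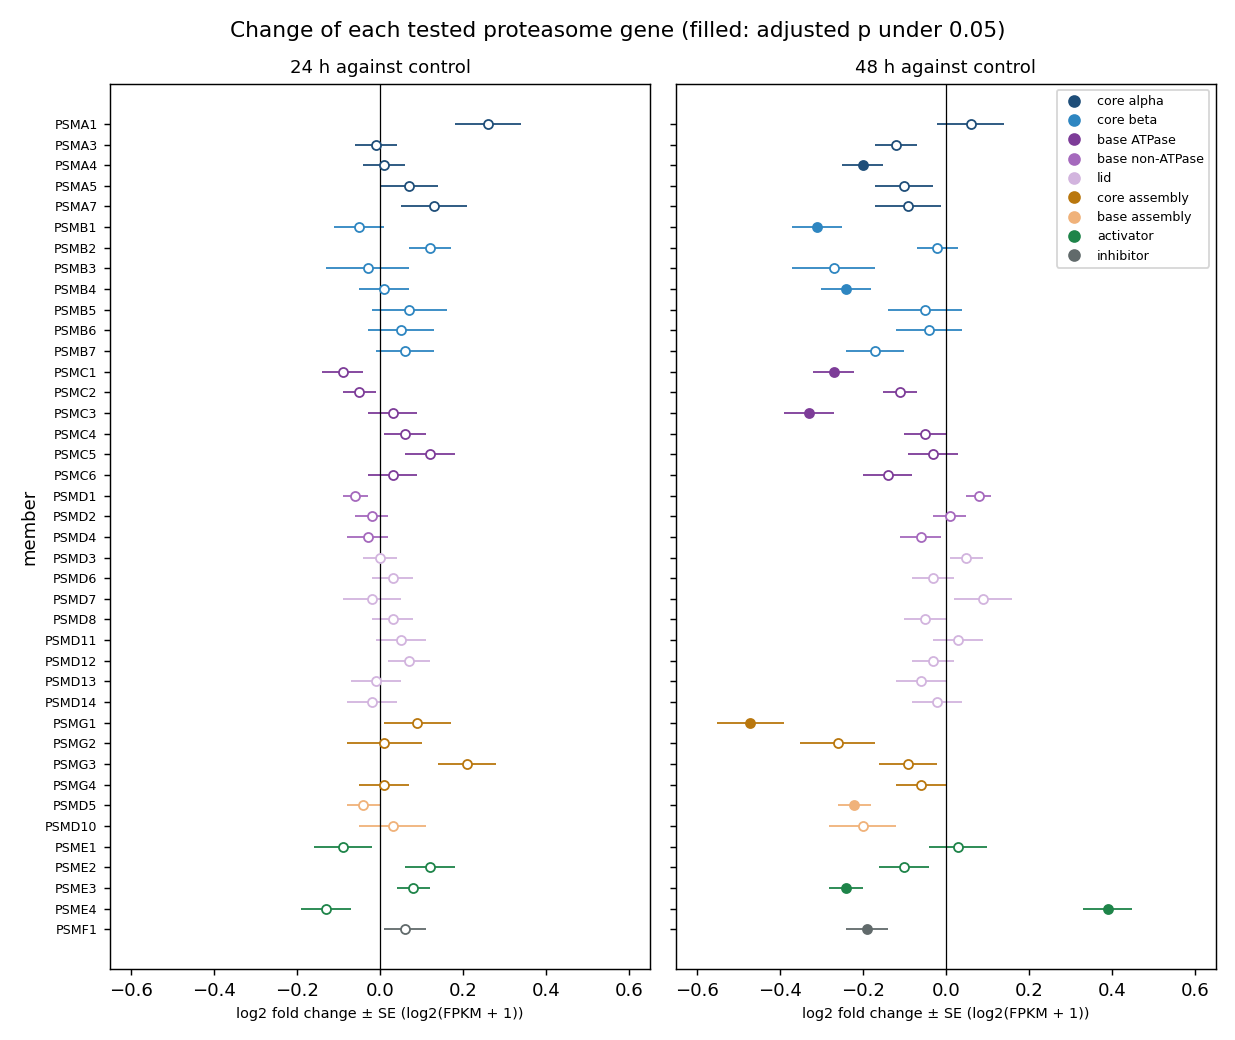
Log2 fold change (on log2(FPKM + 1)) and its standard error for the 40 tested members at 24 h and 48 h against the shared control group, ordered and coloured by structural class. Filled points passed an adjusted p of 0.05. No point is filled at 24 h, and 10 are at 48 h, of which PSME4 alone lies above 0.

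The catalytic subunits did not pass the test at 48 h against control. PSMB5, which carries the chymotrypsin-like site, stood at 72.8, 66.1 and 76.5 FPKM in control, 72.5, 67.8 and 86.7 FPKM at 24 h, and 68.6, 67.2 and 72.4 FPKM at 48 h. The groups overlapped, and the 48 h log2 fold change was -0.05 ± 0.09 (SE; adjusted p = 0.739). PSMB6, which carries the caspase-like site, stood at 58.6, 50.2 and 51.7 FPKM in control, 52.3, 52.4 and 62.3 FPKM at 24 h, and 53.5, 50.03 and 52.7 FPKM at 48 h. These groups overlapped too, with a fold change of -0.04 ± 0.08 at 48 h (adjusted p = 0.768). PSMB7, which carries the trypsin-like site, stood at 106.7, 91.2 and 97.97 FPKM in control, 96.4, 100.5 and 112 FPKM at 24 h, and 87.6, 83.1 and 91.0 FPKM at 48 h. Its 48 h libraries all lay below control, at -0.17 ± 0.07 (adjusted p = 0.106). Against 24 h PSMB7 fell by 0.24 on the log2 scale (adjusted p = 0.0349), a call that 8 of 19 alternatives lost, 5 of them by leaving out 1 library: the third control library, the second or the third 24 h library, or the first or second 48 h library. A missed threshold does not show that the catalytic genes kept their level.

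Among the other 4 tested beta subunits, which shape the ring without a proteolytic site, PSMB1 and PSMB4 fell at 48 h. PSMB1 stood at 92.8, 84.6 and 88.4 FPKM in control, 80.5, 81.6 and 94.3 FPKM at 24 h, and 71.3, 69.9 and 72.6 FPKM at 48 h. The 48 h libraries were below every control and 24 h library, with a log2 fold change of -0.31 ± 0.06 against control (adjusted p = 0.00696), the lowest in the ring. PSMB4 went from 149 ± 5.75 FPKM to 127 ± 7.86 FPKM, a log2 fold change of -0.24 (adjusted p = 0.0244). The PSMB4 call was lost in 6 of 19 alternatives (adjusted p from 0.00569 to 0.0849), among them without the first or the third control library and without the second or the third 48 h library. PSMB3 averaged 79.1 ± 1.4 FPKM before and 65.6 ± 5.94 FPKM after 48 h, at -0.27 ± 0.1, and did not pass (adjusted p = 0.0646). PSMB2 had the highest fold change in the ring: it stood at 23.2, 24.0 and 22.3 FPKM in control, 24.2, 24.9 and 26.7 FPKM at 24 h, and 22.8, 22.3 and 23.5 FPKM at 48 h, a change of -0.02 ± 0.05 from control (adjusted p = 0.807). Its 24 h libraries were above all others, and the fall of 0.14 from 24 h to 48 h (adjusted p = 0.0451) was lost in 14 of 19 alternatives, 8 of which left out 1 library. Only leaving out the first 24 h library kept that call among the 9.

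In the alpha ring, 1 of 5 tested genes fell. PSMA4 stood at 19.6, 18.7 and 19.6 FPKM in control, 18.6, 19.0 and 20.9 FPKM at 24 h, and 16.6, 16.2 and 17.2 FPKM at 48 h. All 48 h libraries lay below the rest, at -0.20 ± 0.05 against control (adjusted p = 0.0179), though the call was lost in 5 alternatives, with median-of-ratios scaling and without the first or the third control library or the first or second 48 h library. PSMA1 had the highest fold change of the ring: 6.32, 6.27 and 6.86 FPKM in control, 7.99, 7.12 and 8.87 FPKM at 24 h, and 7.0, 6.24 and 7.14 FPKM at 48 h. The 24 h libraries of PSMA1 lay above control, by 0.26 ± 0.08, the largest value of any member at that time, but did not pass (adjusted p = 0.539), and at 48 h the value was 0.06 (adjusted p = 0.619). PSMA3, PSMA5 and PSMA7 lay at -0.12, -0.10 and -0.09 at 48 h and did not pass. Over the 12 tested core genes the median log2 fold change was -0.11 at 48 h, with 3 falls. Without the third 24 h library the falls numbered 6, where calls over all genes tested rose from 3891 to 5132. Without the first control, the third control or the second 48 h library, or with median-of-ratios scaling, 1 was left, PSMB1. Calls over all genes tested then numbered 2584 to 3765.

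In the regulatory particle 2 of 17 genes fell at 48 h, with a median log2 fold change of -0.03. In the ATPase ring 2 of 6 genes fell at 48 h and all 6 fold changes were negative, with a median of -0.12. In the lid 0 of 8 passed, also at an unadjusted p under 0.05, and the fold changes lay between -0.06 and 0.09 with a median of -0.02, the same as over all genes tested. The difference between these lists was not tested. Without the third 24 h library 4 of 6 ATPases were called lower and 0 of 8 lid genes. Calls over all genes tested rose there from 3891 to 5132.

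PSMC3 had the lowest fold change of the particle. It stood at 50.3, 46.9 and 50.8 FPKM in control, 47.6, 49.4 and 54.4 FPKM at 24 h, and 39.3, 37.1 and 41.2 FPKM at 48 h. No 48 h library reached a control or 24 h library, and the log2 fold change was -0.33 ± 0.06 (adjusted p = 0.00468). PSMC3 lies at chr11:47418769-47426473 on the minus strand (GRCh38), and its promoter, printed above, held a CCAAT box. PSMC1 went from 22.7 ± 1.06 FPKM to 18.6 ± 0.673 FPKM, at -0.27 ± 0.05 (adjusted p = 0.0029). Both calls held in all 19 alternatives. PSMC5 had the highest fold change of the ring: 25.1, 23.3 and 23.5 FPKM in control, 25.4, 25.04 and 27.8 FPKM at 24 h, and 22.6, 22.5 and 25.2 FPKM at 48 h, overlapping throughout (-0.03 ± 0.06, adjusted p = 0.739). PSMC2, PSMC4 and PSMC6 lay at -0.11, -0.05 and -0.14 and did not pass.

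The remaining base subunits are PSMD1 and PSMD2, the large scaffolds, and PSMD4, a ubiquitin receptor. None of the 3 passed limma's test at 48 h against control, and 1 had an unadjusted p under 0.05. PSMD1 stood at 15.1, 15.6 and 15.7 FPKM in control, 15.2, 14.8 and 14.6 FPKM at 24 h, and 16.7, 16.2 and 16.4 FPKM at 48 h. The 48 h libraries were above all others by a small margin: the change was 0.08 ± 0.03 from control (adjusted p = 0.119), and a rise of 0.14 from 24 h passed (adjusted p = 0.0174). That call was lost in 3 alternatives, without the second 24 h library, without the first 48 h library, and when only the 2 groups compared were fitted. PSMD2 stood at 116 ± 2.98, 114 ± 1.98 and 116 ± 3.09 FPKM in the 3 groups. PSMD4 had the lowest value of the 3, at 81.9, 76.6 and 80.5 FPKM in control, 74.2, 76.8 and 83.6 FPKM at 24 h, and 74.7, 74.0 and 79.8 FPKM at 48 h, with overlap in both comparisons (-0.06 ± 0.05, adjusted p = 0.407).

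In the lid, the scaffold PSMD7 had the highest fold change: 22.0, 21.3 and 23.2 FPKM in control, 21.6, 22.0 and 21.9 FPKM at 24 h, and 24.4, 21.1 and 25.6 FPKM at 48 h. Its second 48 h library lay below every control library, and the change of 0.09 ± 0.07 did not pass (adjusted p = 0.357). Without that library PSMD7 was called higher than control and than 24 h. PSMD13 had the lowest: 35.5, 33.2 and 34.5 FPKM in control, 32.1, 33.9 and 36.3 FPKM at 24 h, and 31.6, 32.1 and 34.8 FPKM at 48 h (-0.06 ± 0.06, adjusted p = 0.42). The deubiquitinase PSMD14 averaged 21.4 ± 0.242 FPKM before and 21.1 ± 0.482 FPKM after 48 h. PSMD3, PSMD6, PSMD8, PSMD11 and PSMD12 lay between -0.05 and 0.05 and had overlapping groups at 48 h against control.

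The assembly factors had the lowest class median at 48 h, -0.21 over 6 tested genes, all with negative fold changes. Of these, PSMG1 and PSMD5 fell against control, and 4 fell against 24 h. Without the third 24 h library 4 of 6 were called lower than control and 3 lower than 24 h. Calls over all genes tested then numbered 5132 and 4594, against 3891 and 4415 with it. Without the first 48 h library 2 were called lower than 24 h, PSMG1 and PSMD5. The class is small, and no test compared it with the core or with other genes.

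PSMG1 forms a dimer with PSMG2 that starts the alpha ring. Its gene lies at chr21:39174769-39183851 on the minus strand (GRCh38). PSMG1 stood at 30.2, 29.2 and 29.5 FPKM in control, 28.0, 31.2 and 36.2 FPKM at 24 h, and 20.8, 20.3 and 22.2 FPKM at 48 h. Every 48 h library was below every other library, and the 48 h mean was 0.712 of the control mean. The log2 fold change of -0.47 ± 0.08 (adjusted p = 0.00316) was the lowest of all tested members and passed in all 19 alternatives, between -0.51 and -0.44. Its partner PSMG2 stood at 21.8, 19.1 and 20.8 FPKM in control, 19.7, 18.8 and 23.7 FPKM at 24 h, and 17.9, 16.2 and 17.0 FPKM at 48 h. The 48 h libraries were the lowest there too, but PSMG2 missed the threshold against control (-0.26 ± 0.09, adjusted p = 0.0517) and passed in 7 of 19 alternatives. Against 24 h it fell by 0.26 (adjusted p = 0.0438), a call lost in 12 alternatives, 7 of which left out 1 library. Only the second control and the second 24 h library could be left out without losing it.

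PSMG3 and PSMG4 form the other chaperone dimer of the core. PSMG3 stood at 25.3, 27.01 and 28.6 FPKM in control, 30.4, 29.1 and 34.4 FPKM at 24 h, and 23.8, 24.9 and 26.9 FPKM at 48 h. Its 24 h libraries lay above all others, by 0.21 ± 0.07 against control without passing (adjusted p = 0.602), and it fell by 0.30 from 24 h to 48 h (adjusted p = 0.0137). That fall was lost without the first 48 h library (adjusted p = 0.0506). PSMG4 was the lowest tested member: 3.3, 3.47 and 3.28 FPKM in control, 3.28, 3.13 and 3.8 FPKM at 24 h, and 3.22, 3.26 and 3.07 FPKM at 48 h. PSMG4 did not pass (-0.06 ± 0.06 at 48 h, adjusted p = 0.54).

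Of the base chaperones, PSMD5 stood at 15.98, 16.8 and 17.0 FPKM in control, 16.3, 16.1 and 15.9 FPKM at 24 h, and 14.5, 13.96 and 13.95 FPKM at 48 h. The 48 h libraries lay below all others, and PSMD5 fell by 0.22 (SE 0.04, adjusted p = 0.00325), a call held in all 19 alternatives. PSMD10, also known as gankyrin, stood at 26.8, 23.7 and 27.6 FPKM in control, 24.1, 26.1 and 29.8 FPKM at 24 h, and 23.1, 21.7 and 22.5 FPKM at 48 h. Its 48 h libraries were the lowest of the 9 and it did not pass (-0.20 ± 0.08, adjusted p = 0.0899). PSMD9 was under the filter.

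**Figure D4:**
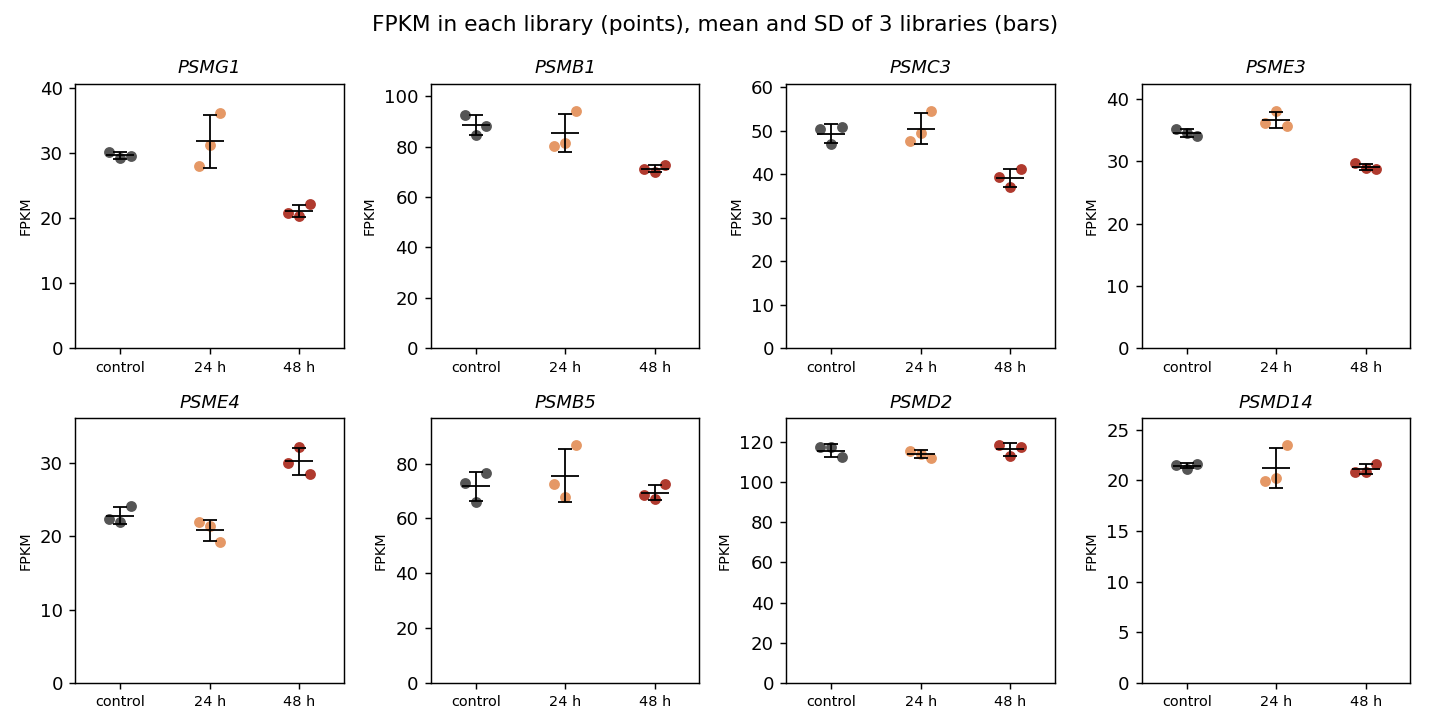
FPKM of 8 members in each library, with the mean and SD of 3 libraries per group, on axes that start at 0. PSMG1, PSMB1, PSMC3 and PSME3 have all 48 h points below the control points, PSME4 has them all above, and PSMB5, PSMD2 and PSMD14 overlap.

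The activators moved in both directions. PSME4, a large single-chain cap linked to acetylated histones and DNA repair, was the only member that rose against control. It stood at 22.4, 21.9 and 24.1 FPKM in control, 21.9, 21.3 and 19.2 FPKM at 24 h, and 30.04, 32.1 and 28.5 FPKM at 48 h. Every 48 h library was above every other library, and the 48 h mean was 1.32 times the control mean and 1.45 times the 24 h mean. The log2 fold change was 0.39 ± 0.06 against control (adjusted p = 0.00262) and 0.52 against 24 h (adjusted p = 0.000567), and both calls held in all 19 alternatives. PSME4 lies at chr2:53864067-53970840 on the minus strand (GRCh38).

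PSME3, the nuclear activator, went the other way. It stood at 35.3, 34.5 and 34.0 FPKM in control, 36.1, 38.1 and 35.7 FPKM at 24 h, and 29.7, 28.9 and 28.8 FPKM at 48 h. The groups were fully separated, and PSME3 fell against control by 0.24 (SE 0.04, adjusted p = 0.00173). From 24 h the fall was 0.32 (adjusted p = 0.000355). PSME1 and PSME2, the interferon-inducible pair, lie 4394 bases apart on chromosome 14 on opposite strands. PSME1 stood at 32.9, 30.9 and 28.7 FPKM in control, 26.8, 29.2 and 30.6 FPKM at 24 h, and 31.6, 29.3 and 33.8 FPKM at 48 h, with overlap (0.03 ± 0.07, adjusted p = 0.78). PSME2 stood at 19.6, 19.8 and 19.4 FPKM in control, 20.3, 20.1 and 23.6 FPKM at 24 h, and 18.1, 17.4 and 19.2 FPKM at 48 h. All 48 h values of PSME2 were below control without passing (-0.10 ± 0.06, adjusted p = 0.273). The fall of PSME2 from 24 h to 48 h, 0.22 (adjusted p = 0.0291), was lost in 5 alternatives, without the first or the second 48 h library among them.

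The inhibitor PSMF1 stood at 14.1, 13.6 and 13.2 FPKM in control, 14.3, 13.4 and 14.9 FPKM at 24 h, and 11.9, 11.8 and 11.8 FPKM at 48 h. The 48 h libraries lay close together and below all others. PSMF1 fell by 0.19 against control (SE 0.05, adjusted p = 0.0154). From 24 h it fell by 0.24 (adjusted p = 0.00395). The first of these calls was lost with median-of-ratios scaling and without the first control or the second 48 h library (adjusted p from 0.00556 to 0.0612 over the alternatives), and the second held in all 19.

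Promoter windows from RefSeq (GRCh38.p14) were found for 39 of the 45 members. PSMA7, PSMB1, PSMB6, PSMB7, PSMD4 and PSMG3 had none. In the 250 bases before the start, on either strand, 12 of 39 members (30.8%) held TGACNNNGC, against 13.2% of 27305 genes with a window. By class the element was found in 2 of 12 core genes, 3 of 16 of the regulatory particle, 4 of 6 assembly factors and 3 of 5 activators and inhibitor. Of the members with a window, it was in 3 of 8 that fell at 48 h, in the 1 that rose and in 7 of 25 that did not pass. CCAAT was found in 18 of 39 members (46.2%), against 37.0% of all genes with a window, and in 4 of the 8 that fell. For both motifs the genes with a window were not limited to protein-coding ones, as the members were. The shares are thus of unlike sets, and their difference was not tested. Matches of the 2 motifs can overlap each other. The members lie on 17 chromosomes, 8 of them on chromosome 14 and 7 on chromosome 17. PSMB4 and PSMD4, 132054 bases apart on chromosome 1, differed in call at 48 h against control. The PSMB4 call was lost in 6 of 19 alternatives, and the part of position in the calls was not tested.

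The immunoproteasome subunits left out by the rule were low and did not pass limma's test at 48 h against control, also at an unadjusted p under 0.05. PSMB8 stood at 8.83, 8.43 and 8.92 FPKM in control, 8.55, 7.77 and 9.91 FPKM at 24 h, and 7.94, 7.74 and 9.03 FPKM at 48 h. PSMB9 stood at 2.2, 1.89 and 2.52 FPKM in control, 2.24, 1.86 and 2.8 FPKM at 24 h, and 2.84, 2.66 and 2.44 FPKM at 48 h, a change of 0.19 ± 0.11 (adjusted p = 0.245). PSMB10 stood at 1.14, 1.45 and 1.27 FPKM in control, 0.92, 1.31 and 0.982 FPKM at 24 h, and 1.58, 1.77 and 1.33 FPKM at 48 h (0.16 ± 0.1, adjusted p = 0.285). Its 48 h libraries lay above all 24 h libraries, by 0.31 ± 0.1, and limma's test of that difference just missed the threshold (adjusted p = 0.0506). All 3 overlapped between control and 48 h, and 58.3% of the coding bases of PSMB10 are shared with another gene model.

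Subunits, chaperones and partners with other names gave 3 rises and 2 falls among 14 tested genes at 48 h, with a median log2 fold change of 0.00. That is 35.7% called, where 28.5% of all genes tested were, 13.3% higher and 15.2% lower. ZFAND5, a proteasome-binding zinc-finger protein, had the highest value: 27.7, 27.3 and 28.0 FPKM in control, 25.5, 26.1 and 28.7 FPKM at 24 h, and 33.8, 35.2 and 34.4 FPKM at 48 h (0.31 ± 0.05, adjusted p = 0.00179). TXNL1, a thioredoxin-like protein bound to the regulatory particle, had the lowest: 6.69, 6.66 and 6.73 FPKM in control, 6.7, 6.61 and 7.74 FPKM at 24 h, and 5.92, 5.17 and 5.83 FPKM at 48 h (-0.21 ± 0.07, adjusted p = 0.0373). AKIRIN2, which brings proteasomes into the nucleus, rose by 0.20 (adjusted p = 0.0153), FBXO7, a ubiquitin ligase subunit that binds PSMF1, rose by 0.15 (adjusted p = 0.0277), and PITHD1 fell by 0.18 (adjusted p = 0.0438). The core chaperone POMP averaged 60.0 ± 4.37 FPKM before and 53.6 ± 1.42 FPKM after 48 h and did not pass (-0.16, adjusted p = 0.263).

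Genes that control the proteasome genes or deliver substrates gave 5 rises and 2 falls among the 15 reported, with a median of 0.06. That is 46.7% called, where 28.5% of all genes tested were, 13.3% higher and 15.2% lower. The list is small, and the difference was not tested. Of those called among the 15, the ubiquitin-activating enzyme UBA6 had the highest value: 7.02, 7.21 and 7.57 FPKM in control, 6.69, 7.24 and 7.86 FPKM at 24 h, and 8.6, 9.36 and 9.08 FPKM at 48 h (0.28 ± 0.06, adjusted p = 0.00884). The other ubiquitin-activating enzyme, UBA1, rose by 0.26, the unfoldase VCP by 0.25, the shuttle UBQLN1 by 0.22 and the deglycosylase NGLY1 by 0.18. UBQLN4, another shuttle, had the lowest: 5.63, 5.89 and 5.73 FPKM in control, 5.58, 5.79 and 5.44 FPKM at 24 h, and 5.16, 4.72 and 4.65 FPKM at 48 h (-0.21 ± 0.05, adjusted p = 0.0116). UFD1, a cofactor of VCP, fell by 0.14. DDI2, the protease that activates NFE2L1 and a gene named after its values were seen, stood at 7.19, 7.42 and 7.25 FPKM in control, 7.52, 7.22 and 5.46 FPKM at 24 h, and 9.08, 9.51 and 8.73 FPKM at 48 h. Its change from control, 0.29 ± 0.09, was the highest of the 15 genes reported and just missed the threshold (adjusted p = 0.05 after rounding), and it rose by 0.40 from 24 h (adjusted p = 0.0123). NFE2L1 stood at 29.04, 31.02 and 29.8 FPKM in control, 31.7, 32.0 and 22.7 FPKM at 24 h, and 27.1, 26.6 and 27.2 FPKM at 48 h. It did not pass (-0.15 ± 0.11, adjusted p = 0.368), and its lowest value of the 9 was in the third 24 h library.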

How the data were processed

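Polyadenylated RNA of 9 libraries of the 143B line was sequenced in paired ends. The authors deposited 1 table of FPKM per gene, and the submitters' processing notes name HISAT2, featureCounts, Subread, DESeq2 and hg38, without versions or roles. Gene types and positions were taken from the GENCODE annotation of GRCh38, and promoter windows from RefSeq. Library totals were inferred from the steps between low FPKM values and GENCODE exon lengths, with which 13167 to 13783 genes per library, of 25947 to 26712 above 0, gave whole fragments (within 0.001). For each member, the gene length was the one that gave whole fragments in the libraries (within 0.002). Genes with at least 1 FPKM in at least 3 of 9 libraries were tested with limma 3.58.1 in R 4.3.3 on log2(FPKM + 1), a pseudocount of 1 that understates the change of low genes. All 9 libraries entered 1 fit with a mean-variance trend and 6 residual degrees of freedom. Tests were two-sided, p-values were adjusted by Benjamini-Hochberg over all genes tested, and a gene was called under 0.05. The procedure was also run on simulated data in which genes and libraries varied independently, and no result here rests on that run. With 3 libraries against 3, an exact permutation test of a single gene cannot go below p = 0.1 and was not used. 

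The members, the structural classes, the lists of other subunits and of control and delivery genes, and the cell type markers were chosen with earlier results of these data known. Every member is named. Library values are given for catalytic subunits, assembly factors, activators, the inhibitor and members under the filter, and for the highest and lowest fold change of each structural class and, among called genes, of each further list. Alternatives were pseudocounts of 0.1 and 0.5, a filter of 5 FPKM and none, 2 scalings, no trend, array weights, only the 2 groups compared, a replicate block, each library left out in turn, and the 2 protein-coding symbols that go on after the number added to the members. From the list of control and delivery genes, 1 gene is not reported here and was left out of that list's counts and median.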

Additional observations from a re-analysis of the deposited data

Results flagged for a closer look

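For 16 members the level at 48 h differed from that at 24 h, by limma's test of that difference on log2(FPKM + 1), so that their changes from the shared control group differed between the exposure times. That is 40% of the 40 tested, where 32.3% of all genes tested differed. They were 14 falls (PSMA4, PSMB1, PSMB2, PSMB4, PSMB7, PSMC1, PSMC3, PSMD5, PSME2, PSME3, PSMF1, PSMG1, PSMG2 and PSMG3) and 2 rises (PSMD1 and PSME4). The third 24 h library, in which the core stood at a median of 0.20 above the control mean, enters this comparison. Without it the count was 11 falls and 2 rises, where calls over all genes tested rose from 4415 to 4594.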

How the results depend on the processing

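No member reversed its direction among the called ones, and 0 members were called at 24 h under every alternative. Of the 10 members called at 48 h against control, 7 were called in all 19 alternatives (PSMB1, PSMC1, PSMC3, PSMD5, PSME3, PSME4 and PSMG1), 3 were lost in some, and 10 others were called in some. Of the 16 called against 24 h, 7 were called in all, 9 were lost in some, and 7 others were called in some. Members called lower at 48 h than control numbered 16 with array weights, 14 with only the 2 groups compared, and 6 to 16 with each library left out; those called higher numbered 2 with median-of-ratios scaling and 1 to 2 with each library left out. Against 24 h, members called lower numbered 9 without a filter and 7 to 17 with each library left out, and those called higher 1 with only the 2 groups compared and 1 to 3 with each library left out. With no filter more genes enter the adjustment, and leaving out a library lowers the number of samples; otherwise the cause was not tested. With the replicate number as a block, 11 members were called lower and 1 higher than control at 48 h, 17 lower and 2 higher than at 24 h, and 0 at 24 h. Same-numbered libraries had correlations of their deviations between -0.0571 and 0.239, not all above 0.1. Those of different numbers lay between -0.192 and 0.128. The highest value, 0.239, joined the third 24 h and the third 48 h library, but not every library correlated best with its own number. With 3 libraries in a group, these correlations cannot decide whether the numbers pair the libraries. Array weights moved the calls over all genes at 24 h from 1 to 46, and quantile normalization to 4. At 48 h against control, calls over all genes moved from 3891 to 5231 with array weights and to 4811 with only the 2 groups compared. Against 24 h they moved from 4415 to 3318 without a filter and to 3484 with only the 2 groups compared. Depth limits PSMA8 and PSMB11, with 0 to 2 fragments in a library.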

Other observations

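Symbols that go on after the prefix and number were outside the rule. PSMC3IP, a meiotic recombination cofactor that is not a proteasome subunit, stood at 4.58, 4.15 and 3.64 FPKM in control, 5.0, 4.57 and 3.93 FPKM at 24 h, and 2.96, 2.32 and 3.1 FPKM at 48 h. It fell by 0.44 (SE 0.11, adjusted p = 0.0158 by limma), with all 48 h libraries below the rest. PSME3IP1, a partner of PSME3, stood at 18.6, 18.5 and 18.9 FPKM in control, 18.9, 19.0 and 18.0 FPKM at 24 h, and 17.1, 16.9 and 17.4 FPKM at 48 h, and fell by 0.12 (SE 0.04, adjusted p = 0.0359). A further 32 noncoding genes and pseudogenes carry such a prefix and were not analysed here.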
